A study of Homo sapiens with 6 samples.

Results

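The licensing, helicase, polymerase and clamp factors of DNA replication were followed as a list of 46 named genes, all of which were among the 21676 gene symbols of the count table. The list also holds MCM8, a helicase that works with MCM9 in homologous recombination, the methylation reader UHRF1, and 4 regulators of entry into S phase, so its label is wider than origins and forks alone. The cells were the 83 line, given in the series as SACC, a name that usually means salivary adenoid cystic carcinoma. ApoD was overexpressed in 3 libraries, numbered OE-1 to OE-3, and 3 libraries, NC-1 to NC-3, were controls of the same line. Apolipoprotein D is a secreted carrier of small lipids. The labels do not say which vector drove ApoD, what the control cells carried, or whether a single clone was used. They also do not say whether the libraries of a group came from separate cultures. Each p-value sets the difference between the groups against the spread of libraries within a group, and that spread could be technical.

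Replication starts in G1, when the origin recognition complex (ORC) and CDC6 sit on an origin and, with CDT1, load the ring-shaped helicase MCM2-7 onto DNA. In S phase the kinase CDC7 with its activator DBF4, and the cyclin E kinase, help to add CDC45 and the GINS complex to the ring. The polymerases, the sliding clamp PCNA and its loader RFC then copy both strands. Many of these genes are known targets of E2F transcription factors, which the retinoblastoma protein holds back until late G1.

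Library totals ran from 37542568 to 40416964 counts. APOD had 15.9, 14.9 and 16.3 CPM in the ApoD overexpression libraries, against 0.223, 0.195 and 0.0483 CPM in the controls. CPM here means counts per 1000000 after TMM scaling, which lines up the libraries on the bulk of their genes. Summed epithelial markers lay at 3168 to 3559 CPM with ApoD overexpression and at 2695 to 3659 CPM in controls. Summed fibroblast markers lay at 9.85 to 13.8 and 26.9 to 32.6 CPM, endothelial markers at 1.35 to 2.30 and 8.01 to 13.3 CPM, and leukocyte markers at 0.0762 to 0.157 and 0.217 to 0.391 CPM, with ApoD overexpression first in each pair. The last 3 sums were lower with ApoD overexpression in every library; in the gene test 3 of 6 epithelial, 2 of 2 tested fibroblast and 3 of 3 endothelial markers fell, and 0 of the 4 leukocyte markers in the table was high enough to test. No marker was at 0 in all libraries. Whether these transcripts came from the line itself or from other cells, and their bearing on the results below, was not tested.

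Of the 46 replication factors 19 rose with ApoD overexpression, 1 fell and 26 did not pass an edgeR adjusted p of 0.05. In the same fit 24.2% of the 14629 tested genes rose and 24.6% fell, 48.8% in all, beside 41.3% and 2.17% of the replication factors. All 46 were well expressed, with mean counts from 632.5 for E2F2 to 20843 for MCM7, and among 9040 tested genes averaging 500 counts or more the shares were 34.4% higher and 19.9% lower, 54.3% in all. The share of members called at all, 43.5%, was thus near or under the background, and the share that rose stood above that of all tested genes and less far above that of the abundant ones. The median log2 fold change, ApoD overexpression over control, was 0.13 over the members, -0.02 over all tested genes and 0.10 over the abundant ones. Changes were small, from -0.33 for MCM6 to 0.78 for MCM10. The libraries of the groups did not overlap for 24 of the 46 members, 22 higher and 2 lower. Of all tested genes 29% were higher and 29.7% lower without overlap. Of the 9040 abundant genes 3628 were higher and 2128 lower without overlap. Levels in a bulk sample do not separate a larger share of cells in S phase from more transcript per cell.

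**Figure D1:**
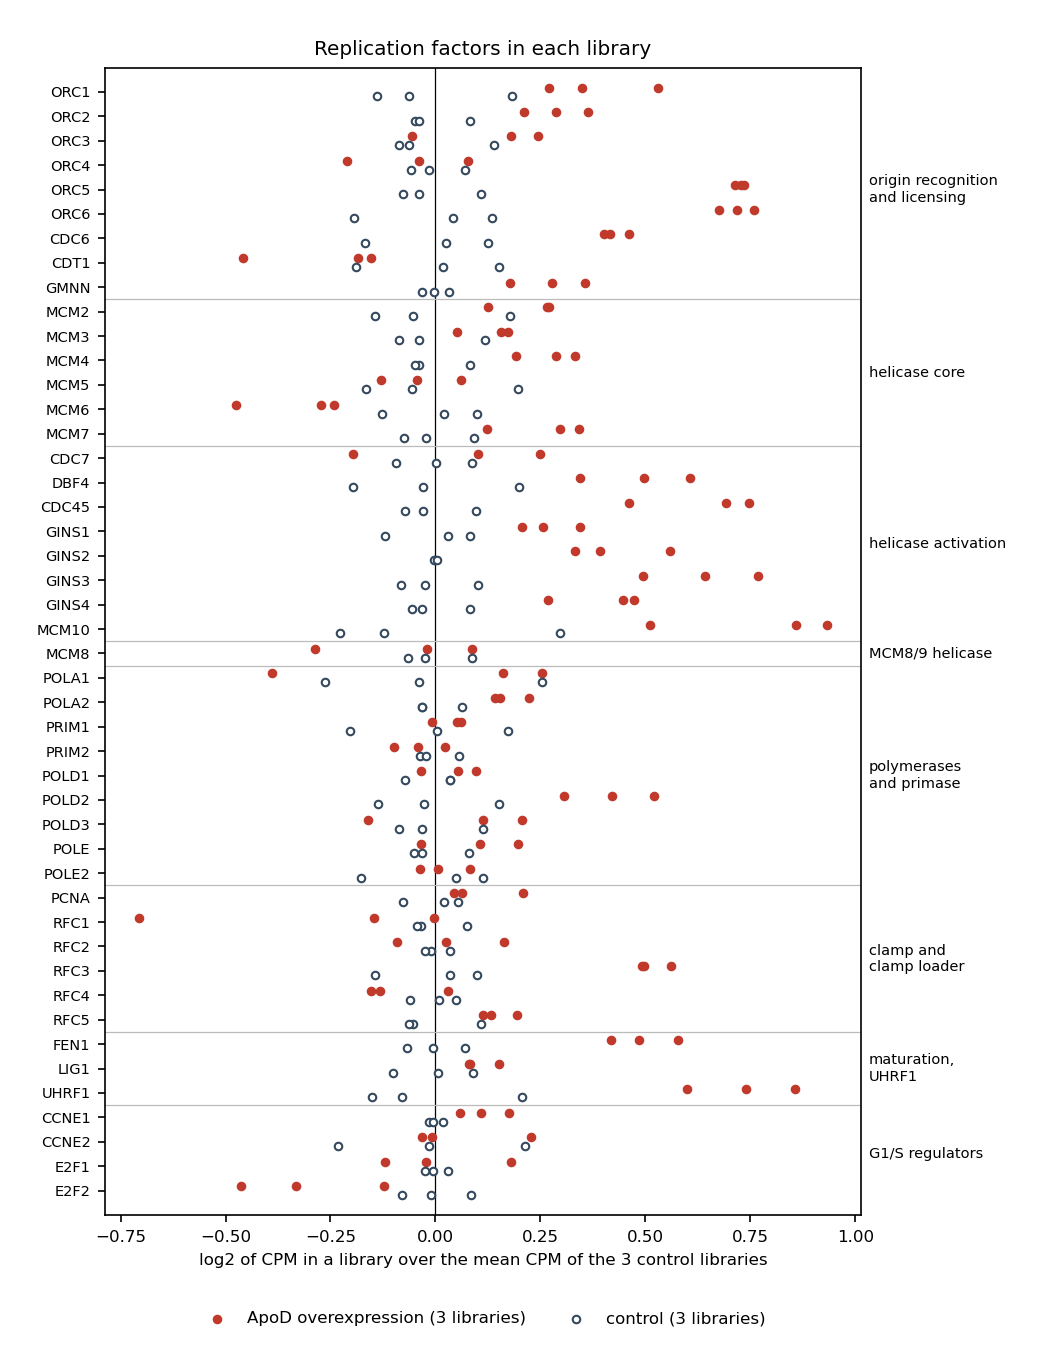
Level of each of the 46 replication factors in each library, as log2 of its CPM over the mean CPM of the 3 controls, with filled points for ApoD overexpression and open points for control. The ApoD overexpression libraries lie to the right of all controls for most helicase activation factors, for ORC5 and ORC6, and for RFC3, FEN1 and UHRF1, while those of MCM6 lie to the left.

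The promoters are shown because many members share letters of an E2F binding motif. Whether E2F factors had a part in the changes was not tested. RefSeq windows (GRCh38.p14) of 300 bases, from 250 before to 50 after a gene's start, were found for 41 of the 46 members; MCM4, MCM5, GINS4, POLD3 and CCNE2 had no entry. The letters TTTCCCGC, TTTGGCGC, TTTCGCGC or TTTGCCGC, which make up a common E2F motif, stood on either strand in a window of 23 members, 56.1%, against 3.99% of all 27305 genes in that table. CCAAT, the letters bound by NF-Y, stood in 56.1% of the members and 39.7% of all genes, and the GC box GGGCGG in 75.6% and 48.3%. The 7 windows below run 5′ to 3′ from 250 bases before the start to 30 bases into the transcript, with E2F letters and CCAAT (or its complement) in capitals. The first 4 belong to members that rose and carry E2F letters, MCM6 is the member that fell, and ORC6 and ORC5 rose with no E2F letters in these bases. UHRF1 had 3 windows, and the printed one was picked by its number of E2F matches and then of CCAAT.
UHRF1 (chr19:4909894-4910173, plus strand): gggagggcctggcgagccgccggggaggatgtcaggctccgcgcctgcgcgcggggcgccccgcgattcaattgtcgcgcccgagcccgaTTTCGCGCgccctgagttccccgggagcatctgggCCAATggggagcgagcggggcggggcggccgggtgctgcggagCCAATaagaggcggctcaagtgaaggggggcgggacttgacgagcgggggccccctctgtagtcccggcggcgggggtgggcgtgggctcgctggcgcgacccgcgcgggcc
GINS3 (chr16:58392221-58392500, plus strand): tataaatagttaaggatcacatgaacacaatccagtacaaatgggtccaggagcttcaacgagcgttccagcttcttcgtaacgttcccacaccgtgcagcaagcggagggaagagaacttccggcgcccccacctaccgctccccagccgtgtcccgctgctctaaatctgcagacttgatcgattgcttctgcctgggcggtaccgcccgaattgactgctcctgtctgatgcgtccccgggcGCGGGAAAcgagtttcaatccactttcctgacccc
RFC3 (chr13:33817899-33818178, plus strand): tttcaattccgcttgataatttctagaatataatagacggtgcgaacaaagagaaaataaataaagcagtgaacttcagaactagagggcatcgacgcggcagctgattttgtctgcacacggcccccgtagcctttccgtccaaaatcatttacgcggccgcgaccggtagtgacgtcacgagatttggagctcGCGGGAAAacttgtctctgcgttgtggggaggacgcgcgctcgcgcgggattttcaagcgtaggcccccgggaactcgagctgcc
CDC6 (chr17:40287629-40287908, plus strand): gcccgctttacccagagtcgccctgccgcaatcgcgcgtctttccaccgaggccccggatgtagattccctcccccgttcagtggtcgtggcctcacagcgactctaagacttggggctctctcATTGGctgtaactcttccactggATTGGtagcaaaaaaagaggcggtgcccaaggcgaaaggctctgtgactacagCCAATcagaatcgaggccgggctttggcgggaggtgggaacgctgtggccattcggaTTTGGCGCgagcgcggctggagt
MCM6 (chr2:135876414-135876693, minus strand): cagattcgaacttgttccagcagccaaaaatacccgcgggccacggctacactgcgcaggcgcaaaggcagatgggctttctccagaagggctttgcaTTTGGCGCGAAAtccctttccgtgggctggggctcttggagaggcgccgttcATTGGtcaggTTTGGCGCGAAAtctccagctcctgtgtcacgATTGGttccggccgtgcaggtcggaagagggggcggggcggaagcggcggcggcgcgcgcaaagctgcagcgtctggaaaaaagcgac
ORC6 (chr16:46689409-46689688, plus strand): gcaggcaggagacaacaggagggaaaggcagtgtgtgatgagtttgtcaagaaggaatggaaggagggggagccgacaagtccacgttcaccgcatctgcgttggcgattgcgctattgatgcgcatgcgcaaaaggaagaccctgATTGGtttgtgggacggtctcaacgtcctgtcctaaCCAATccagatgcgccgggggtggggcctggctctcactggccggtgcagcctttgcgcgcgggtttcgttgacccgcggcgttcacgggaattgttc
ORC5 (chr7:104207984-104208263, minus strand): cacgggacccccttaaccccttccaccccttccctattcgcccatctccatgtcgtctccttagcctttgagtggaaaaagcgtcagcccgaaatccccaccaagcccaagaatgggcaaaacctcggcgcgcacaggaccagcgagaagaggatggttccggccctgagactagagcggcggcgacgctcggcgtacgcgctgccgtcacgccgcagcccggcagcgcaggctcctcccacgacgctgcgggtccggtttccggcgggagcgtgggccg

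MCM6 held 4 overlapping E2F matches, more than any other window printed here, and UHRF1, GINS3, RFC3 and CDC6 held 1 each. Of the 17 risen members with a window 8 had the E2F letters, against 14 of the 23 that did not pass, and MCM6 had them too. The median log2 fold change was 0.13 in the 23 members with the letters and 0.22 in the 18 without. CCAAT was split the other way: 12 of the 17 risen members and 10 of the 23 that did not pass had it, with medians of 0.26 with it and 0.08 without. The GC box stood in 12 of the 17 and 18 of the 23, with medians of 0.12 and 0.30. A match is a stretch of letters in one window and not a measured binding site. For E2F only the 4 sets of letters given above were searched. Members counted as without them may hold other forms of the site.

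**Figure D2:**
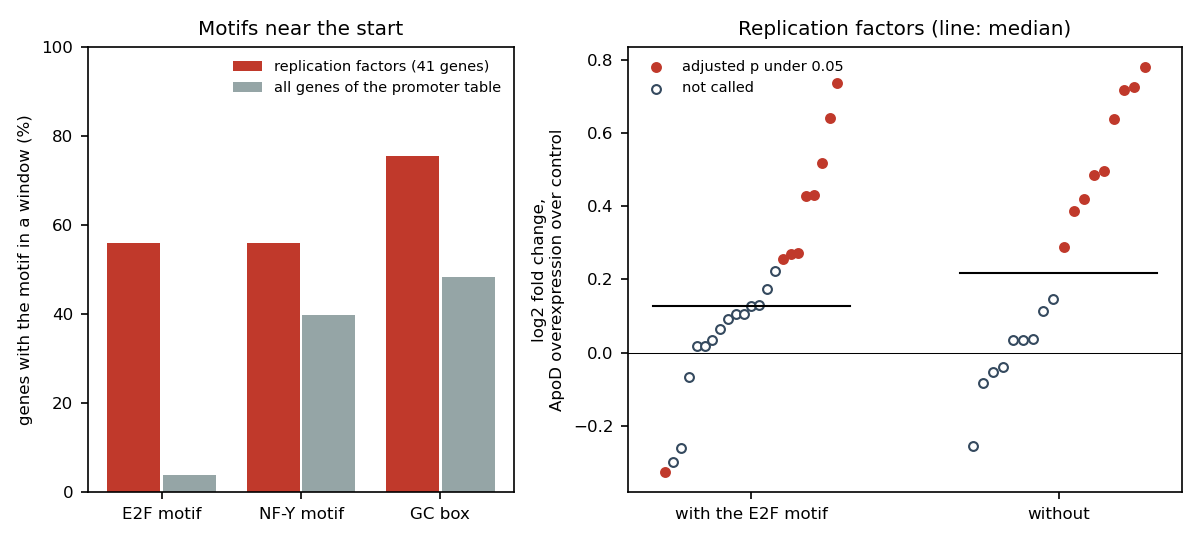
Left, the percentage of genes with a motif in a promoter window, for 41 replication factors and for all genes of the promoter table; right, the log2 fold change of each of the 41, split by the E2F motif, with filled points for members that passed and a line at the median. The E2F motif stood in 56.1% of the members against 3.99% of all genes, and risen members lie on both sides of the right panel.

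Origin recognition and licensing factors rose in 6 of 9 members and fell in 0, beside rises in 24.2% of all tested genes and 34.4% of abundant ones. ORC5 and ORC6 changed most. ORC5, a subunit of the ORC ring, had 50.5, 51.3 and 51.0 CPM with ApoD overexpression, against 33.2, 29.2 and 29.97 CPM in controls (log2 fold change 0.73 ± 0.10 SE, edgeR adjusted p = 8.96e-05). ORC6, the small outer subunit, had 60.8, 64.5 and 62.6 CPM, against 41.8, 33.3 and 39.1 CPM in controls (0.72 ± 0.10, adjusted p = 0.00017). In both genes the ApoD overexpression libraries lay close together and well above every control. CDC6, the ATPase that joins ORC to load the helicase, had 147, 153 and 148 CPM with ApoD overexpression, against 121, 98.9 and 113 CPM in controls (0.43 ± 0.10, adjusted p = 0.00293; 0.25 with the abundance trend removed).

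ORC1, the subunit that brings the complex to chromatin, had 54.0, 51.2 and 61.3 CPM with ApoD overexpression, against 48.2, 40.6 and 38.5 CPM in controls (0.39 ± 0.11 SE, edgeR adjusted p = 0.0136). ORC2 had 61.2, 55.0 and 57.9 CPM, against 50.3, 45.98 and 46.3 CPM in controls (0.29 ± 0.09, adjusted p = 0.0219). The groups did not overlap for either gene, but the gap between them was narrow. ORC3 averaged 45.9 ± 4.90 CPM with ApoD overexpression and 42.0 ± 3.68 CPM in controls (SD, n = 3 each), and ORC4 averaged 29.7 ± 2.95 and 30.8 ± 1.39 CPM in that order; neither passed.

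GMNN encodes geminin, which binds CDT1 and blocks loading after origins have fired. It had 101, 114 and 108 CPM with ApoD overexpression, against 89.1, 87.4 and 91.3 CPM in controls (log2 fold change 0.27 ± 0.09 SE, edgeR adjusted p = 0.0218). CDT1 itself had 49.98, 60.5 and 61.8 CPM, against 60.3, 69.5 and 76.3 CPM in controls; the groups overlapped and the change of -0.26 ± 0.12 did not pass (adjusted p = 0.0816). CDT1 passed as lower with scaling by library totals (-0.38, adjusted p = 0.0219), with the abundance trend removed (-0.39, adjusted p = 0.0197) and without control replicate 1 (-0.34, adjusted p = 0.0298). The calls of ORC1, ORC2 and GMNN were lost with scaling by library totals (adjusted p = 0.0610, 0.138 and 0.143). They were also lost without ApoD overexpression replicate 3 or without control replicate 2; ORC2 was lost too without ApoD overexpression replicate 1 or control replicate 3, and GMNN without ApoD overexpression replicate 2.

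The helicase core did not move together: MCM4 and MCM7 rose, MCM6 fell, and MCM2, MCM3 and MCM5 did not pass. MCM6 had 131, 114 and 134 CPM with ApoD overexpression, against 169.5, 161 and 145 CPM in controls (log2 fold change -0.33 ± 0.10 SE, edgeR adjusted p = 0.0162). It was the only one of the 46 members that fell, and its highest ApoD overexpression library lay below its lowest control. MCM4 had 547, 585 and 603 CPM, against 507, 466 and 463 CPM in controls (0.27 ± 0.09, adjusted p = 0.0209). MCM7, which hosts a microRNA cluster in an intron, had 529, 615 and 596 CPM, against 518, 478 and 461 CPM in controls (0.26 ± 0.09, adjusted p = 0.0373). For MCM7 the lowest ApoD overexpression library was only just above the highest control.

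MCM2 had 349.9, 387 and 385 CPM with ApoD overexpression, against 363, 309 and 290.3 CPM in controls (adjusted p = 0.0861 by edgeR), and it passed as higher without control replicate 1 (log2 fold change 0.33). MCM3 averaged 324 ± 14.7 and 296 ± 22.2 CPM and MCM5 120.3 ± 7.90 and 123 ± 16.2 CPM, with ApoD overexpression first (SD, n = 3 each). The rises of MCM4 and MCM7 were lost when libraries were scaled by totals (adjusted p = 0.113 and 0.178) or with the abundance trend removed (0.492 and 0.622). Both were lost without ApoD overexpression replicate 3, control replicate 2 or control replicate 3, MCM7 also without ApoD overexpression replicate 2, and the call of MCM6 was lost without control replicate 2 (adjusted p = 0.0632). The fall of MCM6 was larger with library totals (-0.44) and with the trend removed (-0.51).

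Helicase activation factors rose in 7 of 8 members, and 6 of them rose also when libraries were scaled by totals and when the abundance trend was taken out. Of all tested genes 24.2% rose under TMM, 17.6% with totals and 22.1% with the trend removed. Among abundant genes 34.4% rose under TMM. MCM10, which helps the loaded helicase open DNA, had 27.96, 21.96 and 29.4 CPM with ApoD overexpression, against 18.9, 13.2 and 14.2 CPM in controls (log2 fold change 0.78 ± 0.16 SE, edgeR adjusted p = 0.00158). This was the largest fold change of the 46 under TMM, though its libraries also spread widely within each group. CDC45, which joins the helicase at firing, had 39.8, 46.8 and 48.6 CPM, against 31.0, 28.4 and 27.5 CPM in controls (0.64 ± 0.11, adjusted p = 0.000509).

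All 4 GINS subunits rose; GINS is the complex that links the helicase to polymerase epsilon. GINS3 had 34.0, 37.6 and 41.03 CPM with ApoD overexpression, against 25.9, 23.7 and 22.8 CPM in controls (0.64 ± 0.11 SE, edgeR adjusted p = 0.000538). GINS2 had 66.2, 74.4 and 63.5 CPM, against 50.4, 50.4 and 50.6 CPM in controls (0.43 ± 0.09, adjusted p = 0.00253). The 3 controls of GINS2 were almost equal, and every ApoD overexpression library was above them. GINS4 had 39.8, 45.0 and 45.8 CPM, against 35.0, 31.8 and 32.3 CPM in controls (0.40 ± 0.10, adjusted p = 0.00637; 0.25 on log2(FPKM + 1) values). GINS1 had 77.8, 85.5 and 80.4 CPM, against 62.0, 68.8 and 71.3 CPM in controls (0.27 ± 0.09, adjusted p = 0.0304). GINS1 moved least of the 4, and its call was lost with library totals (adjusted p = 0.202), with the trend removed (0.302), and without any of ApoD overexpression replicates 2 and 3 and control replicates 1 and 2.

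The kinase that fires origins changed in its activator and not measurably in its catalytic subunit. DBF4, the activator, had 55.1, 45.95 and 51.0 CPM with ApoD overexpression, against 31.6, 35.4 and 41.5 CPM in controls (log2 fold change 0.49 ± 0.12 SE, edgeR adjusted p = 0.00515). CDC7, the kinase, had 45.8, 33.6 and 41.3 CPM, against 38.5, 36.1 and 40.9 CPM in controls (0.06 ± 0.12, adjusted p = 0.689). The groups overlapped for CDC7, whose lowest library was ApoD overexpression replicate 2. The call of DBF4 was lost only with limma on unfiltered log2(FPKM + 1) values (adjusted p = 0.0991). MCM8 had 60.2, 50.04 and 64.9 CPM, against 58.4, 60.02 and 64.8 CPM in controls, and did not pass (adjusted p = 0.648).

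Among 9 polymerase and primase genes 1 rose and 0 fell, beside 24.2% and 24.6% of all tested genes and 34.4% and 19.9% of abundant ones. POLD2, an accessory subunit of the lagging strand polymerase delta, had 229, 266 and 248 CPM with ApoD overexpression, against 206, 182 and 169 CPM in controls (log2 fold change 0.42 ± 0.10 SE, edgeR adjusted p = 0.00442). Its catalytic partner POLD1 averaged 78.6 ± 3.62 CPM with ApoD overexpression and 76.5 ± 3.24 CPM in controls, and POLD3 35.1 ± 4.50 and 33.7 ± 2.45 CPM in that order (SD, n = 3 each). POLE, the catalytic subunit of the leading strand polymerase epsilon, averaged 149 ± 11.9 and 140.1 ± 7.003 CPM, and its partner POLE2 17.5 ± 0.740 and 17.3 ± 1.78 CPM. The 8 genes that did not pass had log2 fold changes from -0.04 for PRIM2 to 0.17 for POLA2. The call of POLD2 was lost with the abundance trend removed (0.22, adjusted p = 0.0523).

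The polymerase alpha and primase complex lays the RNA-DNA primers, and its 4 subunits did not pass. POLA1, the catalytic subunit, had 70.2, 48.0 and 75.0 CPM with ApoD overexpression, against 75.0, 61.1 and 52.3 CPM in controls. Its spread within each group was wider than the difference between them (adjusted p = 0.874 by edgeR). POLA2, the regulatory subunit, had 89.7, 95.002 and 90.5 CPM, against 85.0, 79.6 and 79.5 CPM in controls, which do not overlap, but its change of 0.17 ± 0.09 had an adjusted p of 0.113. PRIM1, the primase itself, averaged 35.5 ± 0.939 and 34.7 ± 4.48 CPM and PRIM2 42.2 ± 1.79 and 43.3 ± 1.53 CPM, with ApoD overexpression first (SD, n = 3 each).

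Of the clamp and its loader only RFC3 rose, 1 of 6 genes, and 0 fell. The shares were 24.2% higher and 24.6% lower of all tested genes, and 34.4% and 19.9% of abundant ones. RFC3, a small subunit of the loader, had 105, 101 and 101 CPM with ApoD overexpression, against 73.2, 64.7 and 76.6 CPM in controls (log2 fold change 0.52 ± 0.09 SE, edgeR adjusted p = 0.000742). PCNA, the clamp, had 239, 268 and 242 CPM, against 235, 219.6 and 240.3 CPM in controls (0.11 ± 0.09, adjusted p = 0.339). The other small subunits RFC2, RFC4 and RFC5 had changes of 0.04, -0.08 and 0.15 on the log2 scale and did not pass.

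RFC1, the large subunit, had 133, 81.97 and 121 CPM with ApoD overexpression, against 141, 130.4 and 129.6 CPM in controls. Its lowest library was ApoD overexpression replicate 2, and the change of -0.25 ± 0.15 SE did not pass (edgeR adjusted p = 0.170). The change was -0.08 without that library, and RFC1 passed as lower without ApoD overexpression replicate 1 (-0.38, adjusted p = 0.0419) and with the abundance trend removed (-0.43, adjusted p = 0.0269).

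Of the 3 ApoD overexpression libraries, replicate 1 was the lowest in 24 members, replicate 2 in 16 and replicate 3 in 6, beside 4935, 5592 and 4102 of all tested genes. Some members were far lower or higher in replicate 2, and the most extreme are given here. Set against the mean of replicates 1 and 3 on the log2 scale, that library differed by -0.63 in RFC1, -0.60 in POLA1, -0.38 in MCM10 and -0.37 in CDC7, and by 0.28 in E2F2 and 0.25 in E2F1. Across the 46 members this deviation was higher with higher GC content in the longest GENCODE 29 transcript (Spearman 0.69, Pearson 0.59), and across 8842 abundant genes it did so less (0.49 and 0.48). With gene length it had Spearman coefficients of -0.35 over the members and -0.58 over 9040 abundant genes; genes of 1 library share its depth and preparation, so no p is given. The fold change between the groups had a Spearman coefficient of -0.02 with GC content over the members and 0.06 over the 8842 abundant genes. With gene length the coefficient was -0.09 over the members and -0.18 over the 9040 abundant genes. Without this library 16 members rose and 2 fell, beside 21.4% and 22.3% of all genes in that fit, and MCM10 rose by 0.89.

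FEN1 and UHRF1 rose and LIG1 did not pass. FEN1, the nuclease that trims flaps of Okazaki fragments, had 209.9, 235 and 219.8 CPM with ApoD overexpression, against 165, 149.97 and 156 CPM in controls (log2 fold change 0.50 ± 0.09 SE, edgeR adjusted p = 0.000641). LIG1, the ligase that seals them, had 62.7, 62.5 and 65.7 CPM, against 63.0, 59.4 and 55.1 CPM in controls (0.10 ± 0.09, adjusted p = 0.366). UHRF1, which reads hemimethylated DNA behind the fork and calls in the methylase DNMT1, had 144, 172 and 159 CPM, against 109.7, 90.0 and 85.7 CPM in controls (0.74 ± 0.11, adjusted p = 0.00023). Every ApoD overexpression library exceeded every control for FEN1 and UHRF1, and the change of FEN1 was 0.30 with the abundance trend removed.

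None of the 4 G1/S regulators passed, where 48.8% of all tested genes did. CCNE1 and CCNE2 encode cyclin E, the partner of CDK2 at the start of S phase. CCNE1 had 16.8, 17.5 and 16.2 CPM with ApoD overexpression, against 15.7, 15.4 and 15.5 CPM in controls; these do not overlap, but the change was 0.12 ± 0.11 SE on the log2 scale (edgeR adjusted p = 0.416). CCNE2 averaged 29.9 ± 3.04 CPM with ApoD overexpression and 28.5 ± 4.41 CPM in controls (SD, n = 3 each). E2F1, an activating E2F factor, had 74.3, 85.5 and 69.3 CPM, against 75.1, 77.0 and 74.1 CPM in controls (0.02 ± 0.10, adjusted p = 0.894). E2F2, its close relative, had 12.9, 16.3 and 14.1 CPM, against 18.8, 16.7 and 17.6 CPM in controls, lower in every ApoD overexpression library, and its change of -0.30 ± 0.13 had an adjusted p of 0.0684. E2F2 passed as lower with library totals (-0.42, adjusted p = 0.0162) and without ApoD overexpression replicate 2 (-0.40, adjusted p = 0.0257).

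**Figure D3:**
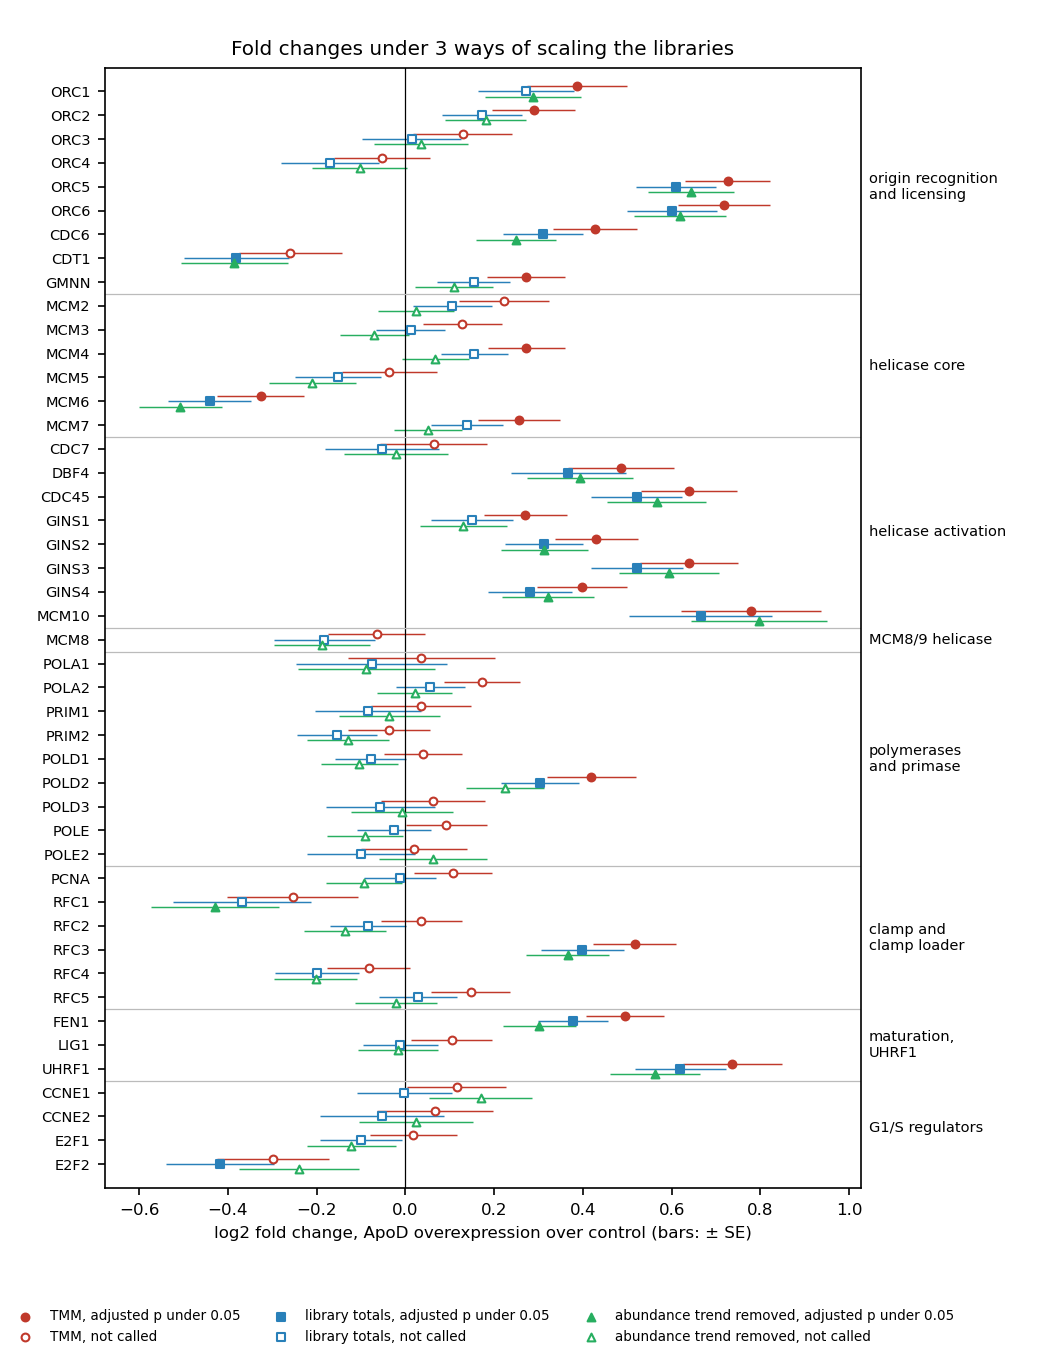
Log2 fold change ± SE of the 46 replication factors with libraries scaled by TMM, by their totals, and with each library's abundance trend removed; filled marks passed an adjusted p of 0.05. Under TMM 19 members passed as higher and 1 as lower, and under each of the others 13 and 3.

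How libraries were scaled moved the whole list. With library totals 13 members rose and 3 fell, beside 17.6% and 30.3% of all tested genes (48% in all), and the median of the members was 0.01. After removal of each library's trend with abundance the counts were again 13 and 3, beside 22.1% and 23.1% (45.2% in all), and the median was 0.02. Over all tested genes library totals gave a median of -0.13 and 2580 higher against 4435 lower, where TMM gave 3539 and 3601. Under all 15 alternatives, which include leaving out each library, 11 members stayed higher: ORC5, ORC6, CDC6, CDC45, GINS2, GINS3, GINS4, MCM10, RFC3, FEN1 and UHRF1. Another 3, DBF4, POLD2 and MCM6, lost their call in 1 alternative, and 6 lost it in more than 1. Of the 26 members that did not pass, 22 passed in no alternative.

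Levels per gene length showed how subunits of one complex stood to each other. These are the authors' FPKM values, which are scaled by library totals, so the ApoD overexpression values sit somewhat lower against the controls than on the TMM scale. MCM7 was the most abundant core subunit at 184 ± 11.9 FPKM with ApoD overexpression and 167 ± 7.06 FPKM in controls (SD, n = 3 each), and MCM5 the least at 28.1 ± 1.43 and 31.2 ± 3.52 FPKM. MCM6 came next above MCM5, at 32.3 ± 3.13 FPKM with ApoD overexpression and 43.9 ± 2.54 FPKM in controls. Summed over MCM2 to MCM7 the level was 571 ± 23.7 and 547 ± 31.4 FPKM, a difference within the spread.

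In ORC, ORC6 was highest at 34.1 ± 0.493 FPKM with ApoD overexpression and 22.5 ± 2.58 FPKM in controls, and ORC4 lowest at 4.08 ± 0.465 and 4.59 ± 0.233 FPKM. ORC5 stood at 12.4 ± 0.0905 and 8.11 ± 0.474 FPKM, so that with ApoD overexpression it was level with ORC2 and ORC3 (12.3 ± 0.831 and 12.6 ± 1.52 FPKM), while in controls it was below both (10.9 ± 0.431 and 12.5 ± 0.933 FPKM). The summed ORC level was 91.7 ± 3.53 FPKM with ApoD overexpression and 72.0 ± 5.06 FPKM in controls. RFC3 was the lowest loader subunit in both groups, at 8.73 ± 0.358 and 6.62 ± 0.655 FPKM, and RFC2 the highest at 58.7 ± 4.35 and 62.1 ± 2.58 FPKM. Length is the authors' gene length, so subunits with several transcript forms may be misplaced in this order. The place of RFC3 rests on this length, 11245 bases against 1842 for RFC2. In CPM RFC3 (102 with ApoD overexpression, 71.5 in controls) lay above RFC4 (57.2 and 60.6).

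**Figure D4:**
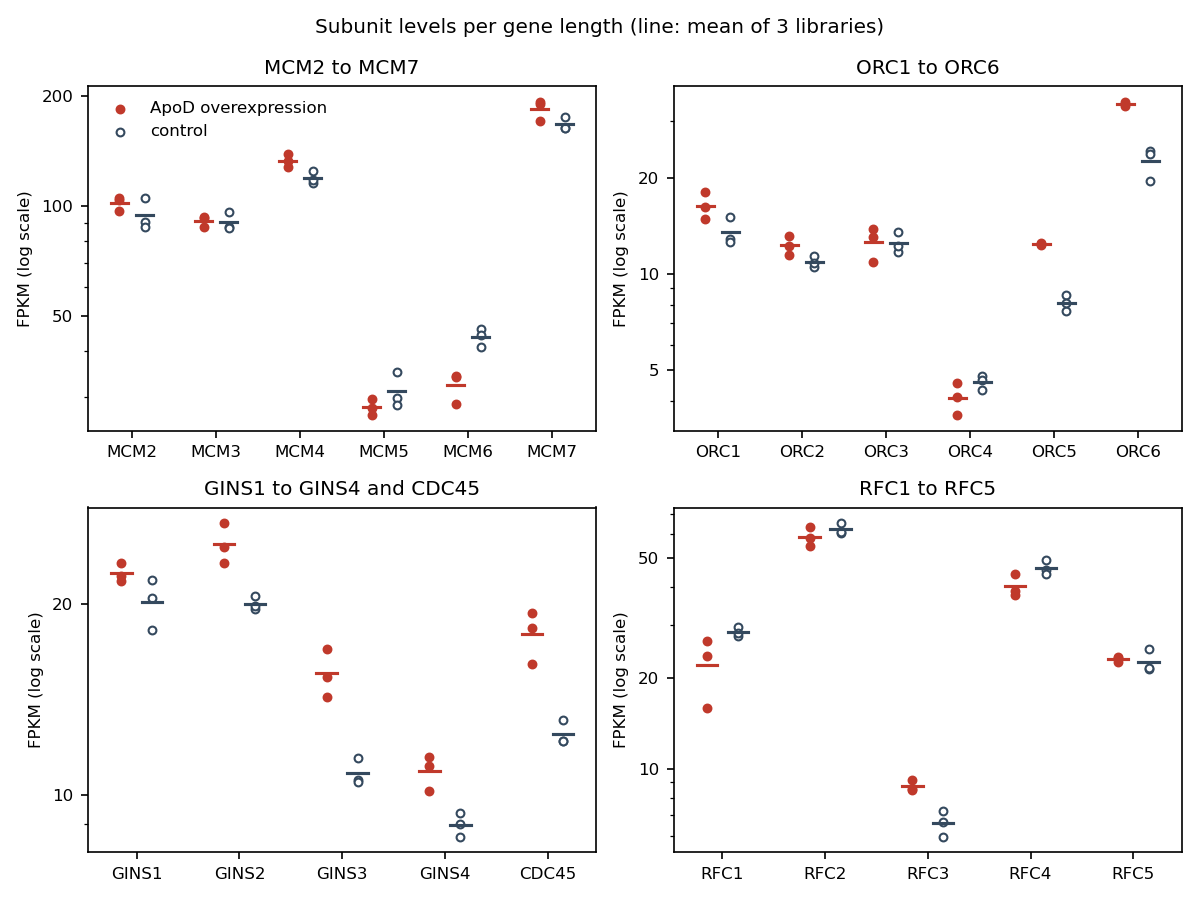
FPKM of each subunit on log axes in the 3 ApoD overexpression libraries (filled, left) and the 3 controls (open, right), with lines at the means, for MCM2-7, ORC, GINS with CDC45, and RFC. With ApoD overexpression ORC5, ORC6, GINS2, GINS3, GINS4, CDC45 and RFC3 lie higher and MCM6 lower, with a clear gap to the controls, while MCM2, MCM3, MCM5, ORC3, RFC2 and RFC5 overlap.

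Ratios of members within a library do not depend on the factor by which that library is scaled. CDT1 over GMNN, both in FPKM, was 0.777, 0.830 and 0.895 with ApoD overexpression, against 1.06, 1.25 and 1.31 in controls. MCM6 over the mean of the other 5 core subunits was 0.334, 0.260 and 0.309, against 0.430, 0.454 and 0.425 in controls. Both ratios were about 69% of the control value, and neither overlapped between the groups. The mean of ORC5 and ORC6 over that of ORC3 and ORC4 was 2.50, 3.23 and 2.71 with ApoD overexpression, against 1.84, 1.65 and 1.88 in controls.

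DBF4 over CDC7 was 1.16, 1.32 and 1.19 with ApoD overexpression, against 0.793, 0.950 and 0.981 in controls. RFC3 over the mean of RFC2, RFC4 and RFC5 was 0.225, 0.204 and 0.215, against 0.156, 0.141 and 0.157 in controls. The mean of the GINS subunits and CDC45 over that of MCM2 to MCM7 was 0.191, 0.196 and 0.190, against 0.148, 0.161 and 0.169 in controls, so the activating partners were higher relative to the core. E2F1 over E2F2 averaged 11.8 ± 0.956 and 9.47 ± 0.677, and POLD2 over POLD1 5.29 ± 0.290 and 4.06 ± 0.297, with ApoD overexpression first (SD, n = 3 each). All 8 ratios were chosen after the values of their members were seen, and none overlapped between the groups. Each had an exact two-sided permutation p of 0.1, also after adjustment over the 8. That is the smallest p that 3 libraries against 3 allow. Because the choice followed the values, no support is drawn from these gaps or p-values.

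**Figure D5:**
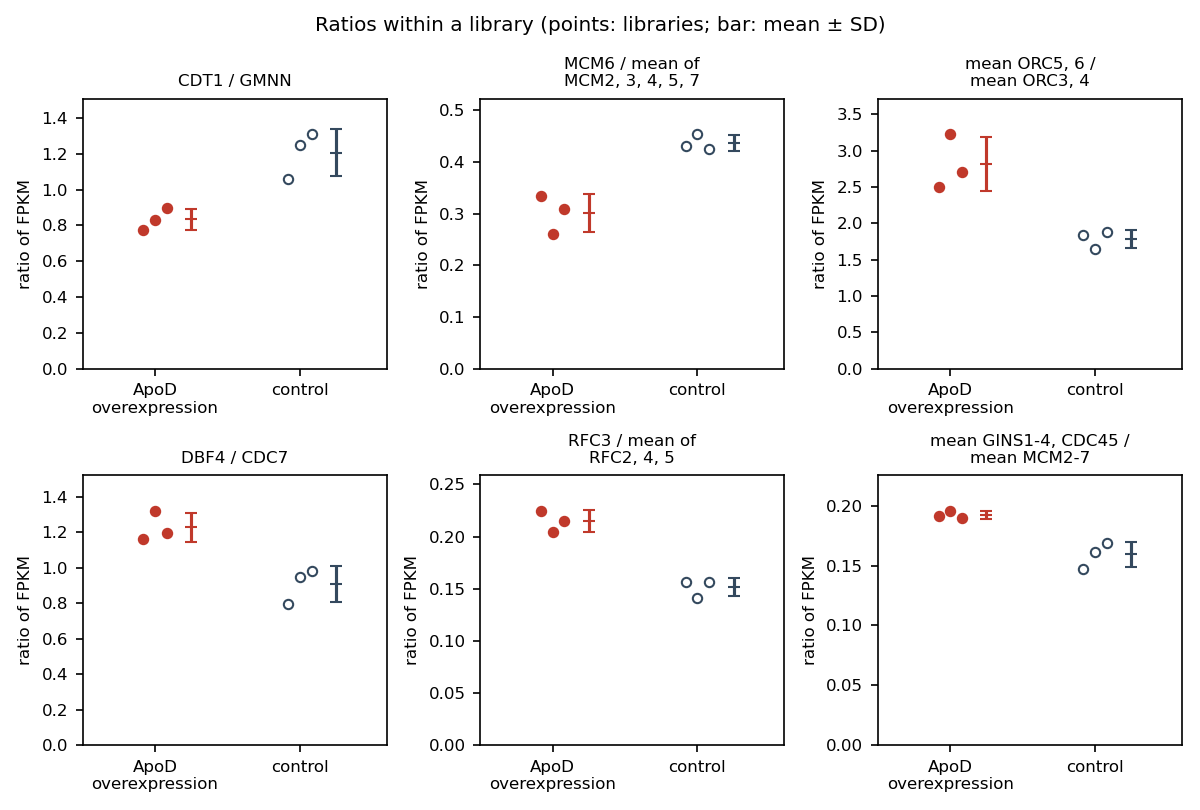
Ratios of FPKM within each library for 6 pairs or groups of replication factors, with ApoD overexpression left and control right; points are libraries and bars the mean ± SD. CDT1 over GMNN and MCM6 over the other core subunits lie lower with ApoD overexpression, at 0.834 and 0.301 on average against 1.21 and 0.436 in controls, and the other 4 lie higher.

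Reads of neighbouring genes could touch some of these values, because no source used here says whether counting used the strand. In GENCODE 29, exons of 14 members overlap a gene on the opposite strand, among them RFC4 with the abundant EIF4A2, GINS2 with GSE1 and FEN1 with TMEM258. On the same strand exons of 5 members overlap another gene, among them PRIM1 with NACA and FEN1 with FADS2. Pseudogenes named after DBF4, POLD2, PCNA, RFC3, RFC5 and FEN1 exist, and reads of these genes may be split between copies.

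Other factors that work at the fork rose in 14 of 26 tested genes and fell in 2, with a median log2 fold change of 0.31. In the same fit 24.2% of all tested genes rose and 24.6% fell, and 34.4% and 19.9% of the abundant ones. POLE3 and POLE4, the histone-fold subunits of polymerase epsilon, rose, with 204, 236 and 220 CPM and 48.3, 61.4 and 50.9 CPM with ApoD overexpression, against 143, 132 and 133 CPM and 36.7, 32.7 and 33.3 CPM in controls. TIPIN, which steadies stalled forks with TIMELESS, rose by 0.78 ± 0.14 SE. POLD4, the smallest subunit of polymerase delta, had 27.4, 26.4 and 25.1 CPM with ApoD overexpression, against 46.7, 70.0 and 68.4 CPM in controls (log2 fold change -1.23 ± 0.14 SE, edgeR adjusted p = 3.8e-05). POLD4 thus fell where its partner POLD2 rose. The other fall was TOP2A, the topoisomerase that untangles finished duplexes, named after its value was seen. It had 484, 272 and 484 CPM with ApoD overexpression, against 649, 627 and 607 CPM in controls (-0.60 ± 0.17 SE), and the change was -0.38 without ApoD overexpression replicate 2, its lowest library. With library totals 9 of the 26 rose and 2 fell, beside 17.6% and 30.3% of all tested genes. Without control replicate 2 the counts were 8 and 2, beside 18.04% and 18.5%.

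Genes for nucleotide supply rose in 3 of 10 and fell in 1, and that share of rises was near the 24.2% of all tested genes and below the 34.4% of abundant ones. RRM2, the S phase subunit of ribonucleotide reductase, had 248, 276 and 271 CPM with ApoD overexpression, against 181, 176 and 194 CPM in controls (log2 fold change 0.53 ± 0.09 SE, edgeR adjusted p = 0.000419), a change of 0.33 with the abundance trend removed. Among the other genes, thymidylate kinase DTYMK rose by 0.70 ± 0.13 and the dNTP hydrolase SAMHD1 by 0.59 ± 0.14, while the alternative reductase subunit RRM2B had a change of -0.52 ± 0.17 and passed as lower (adjusted p = 0.0226). RRM2B was lowest in ApoD overexpression replicate 2, and without that library or without control replicate 3 no gene of this list fell.

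Chromatin assembly genes rose in 3 of 11 and fell in 1; the 27.3% that rose was near the 24.2% of all tested genes and below the 34.4% of abundant ones. CHAF1A, the large subunit of the histone chaperone CAF-1, rose by 0.61 ± 0.10 SE, SSRP1 by 0.51 ± 0.11 and DNMT1, the partner of UHRF1, by 0.49 ± 0.10 (edgeR adjusted p = 0.000334, 0.00266 and 0.0018). DNMT1 had 303, 336 and 360 CPM with ApoD overexpression, against 261, 235 and 216 CPM in controls. With the abundance trend removed the changes of DNMT1 and SSRP1 were 0.29 and 0.31. The remodeller HELLS, with a change of -0.36 ± 0.12, passed as lower, a call not made without ApoD overexpression replicate 2, control replicate 2 or control replicate 3.

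Regulators of the E2F and retinoblastoma axis outside the list rose in 12 of 18 and fell in 2, with a median log2 fold change of 0.39. In the same fit 24.2% of all tested genes rose and 24.6% fell, and 34.4% and 19.9% of the abundant ones. With library totals 10 rose and 2 fell, beside 17.6% and 30.3% of all tested genes. CDC25A, the phosphatase that frees CDK2 for S phase, had 76.1, 89.6 and 88.4 CPM with ApoD overexpression, against 43.1, 33.8 and 36.9 CPM in controls (log2 fold change 1.16 ± 0.11 SE, edgeR adjusted p = 1.22e-05). E2F4 and E2F5, E2F factors known mainly as repressors, rose by 0.81 ± 0.10 and 0.72 ± 0.11, and MYBL2, which drives late cell cycle genes, by 0.78 ± 0.13. E2F1 and E2F2 did not pass, as given above. The 2 falls were RBL2, a pocket protein that holds E2F4 and E2F5 on promoters, at -0.71 ± 0.11, and TFDP2, a dimer partner of E2F factors, at -0.64 ± 0.09, both named after their values were seen.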

How the data were processed

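RNA from 6 libraries of the 83 line was prepared with the RNeasy Plus Mini and SMARTER mRNA-Seq kits, per the labels' protocols. The sources used here name no aligner, counter, strand setting or genome build. The authors deposited whole-number read counts per gene symbol and FPKM values for the same genes; all 108650 FPKM values above 0 equalled count over length over column total within 0.0001, with 1 whole-number length per gene. The deposited FPKM values were used for levels per length and as an alternative unit.

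Counts went into edgeR 4.0.16 (quasi-likelihood test, R 4.3.3): TMM scaling, filterByExpr with a minimum count of 10 (14629 genes kept), two-sided, Benjamini-Hochberg over all kept genes, threshold 0.05. Each SE is the log2 fold change divided by the square root of F. The steps were also run on simulated counts in which a small set of genes changed, evenly up and down. Far more genes changed in the data, so that run does not probe the scaling and no support is drawn from it. Library totals of 37542568 to 40416964 leave counting error small for these genes. The 15 alternatives were DESeq2 size factors, library totals, removal of each library's trend with abundance, the DESeq2 1.42.0 Wald test, no filter, the replicate number as a block, limma 3.58.1 on FPKM in 3 forms, and leaving out each library. Every member is given by role, with the value in each library for all members that passed, and up to 4 passing genes by size from each of 6 other lists. The members and lists were chosen with earlier results of these data known. Motifs were searched in RefSeq promoter windows; GC content and overlaps came from GENCODE 29, whose build may differ from the authors'.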

Additional observations from a re-analysis of the deposited data

How the results depend on the processing

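Over all genes 7140 were called, and the count stayed within 1.5 times of that in all 15 alternatives. The 19 rises became 12 on unfiltered log2(FPKM + 1) values, with a member median of 0.011 there. The single fall became 3 with library totals, with the abundance trend removed, and on filtered log2(FPKM + 1) or log2(FPKM + 0.1) values, and the median of the members became 0.013, 0.024, 0.011 and 0.011 in that order. Leaving out 1 library gave 13 to 19 rises, 0 to 2 falls and a median of 0.11 to 0.19; the 0 came without control replicate 2, where MCM6 missed the threshold. DESeq2 size factors, the Wald test of DESeq2 and no low-count filter each called the same 20 members. The replicate numbers do not pair the libraries: same-numbered libraries had correlations of deviation of -0.115, -0.00573 and -0.0391. With the replicate block 14 members rose and 1 fell, the losses being ORC2, GMNN, MCM4, MCM7 and GINS1, and 6348 genes were called. No called member changed sign in any alternative; of the members that never passed, up to 13 changed sign under a single alternative.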

Other observations

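Genes that act after and around replication were also measured. Of 21 mitosis genes 6 rose and 0 fell. The 28.6% that rose was near the 24.2% of all tested genes and below the 34.4% of abundant ones. Falls made up 24.6% and 19.9% of those genes. With library totals 5 rose and 2 fell, beside 17.6% and 30.3% of all tested genes. CDCA8 and AURKB, which sit together in the chromosomal passenger complex, had 56.4, 61.5 and 61.8 CPM and 94.5, 114 and 104 CPM with ApoD overexpression, against 44.1, 40.4 and 36.8 CPM and 66.3, 72.1 and 77.3 CPM in controls. The log2 fold changes were 0.57 ± 0.10 SE for CDCA8 and 0.53 ± 0.10 for AURKB, 0.78 ± 0.12 for CDC20, which activates the anaphase-promoting complex, and 0.76 ± 0.10 for the mitotic kinase PLK1 (edgeR adjusted p = 0.000655, 0.00104, 0.00022 and 7.92e-05).

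Of 10 replication checkpoint genes 4 rose and 1 fell, beside 24.2% and 24.6% of all tested genes and 34.4% and 19.9% of abundant ones. CHEK1, the kinase that slows origin firing when forks stall, had 36.2, 39.3 and 36.8 CPM with ApoD overexpression, against 33.4, 26.8 and 26.9 CPM in controls (log2 fold change 0.37 ± 0.11 SE, edgeR adjusted p = 0.0182). RAD1 and HUS1, 2 parts of the checkpoint clamp, rose by 0.35 ± 0.10 and 0.31 ± 0.10. TIPIN, counted in this list and among the fork factors, was the remaining rise, and the kinase WEE1 was the fall, at -0.23 (edgeR adjusted p = 0.048, named after its value was seen), a call not made in 5 of the 6 fits that left out a library. With library totals 1 of the 10 rose and 2 fell, beside 17.6% and 30.3%, and without control replicate 2 the counts were 1 and 0, beside 18.04% and 18.5%. The rises of CHEK1, RAD1 and HUS1 were lost in both of these fits; CHEK1 was lost too without ApoD overexpression replicate 2 or control replicate 3, and HUS1 without ApoD overexpression replicate 1.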
